A study of Mus musculus with 6 samples.

Results

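Gene expression was compared between interscapular brown adipose tissue (iBAT) of control and *ob/ob* mice for 35 genes of pyruvate oxidation and the TCA cycle. These genes were listed by name, from the mitochondrial pyruvate carrier to glutamate dehydrogenase, and each was read from the brightest of its probes. The succinate dehydrogenase subunits were left out. All 35 were among the 19011 named genes tested on the array. The data were 6 Agilent one-color arrays, each from total RNA of 1 iBAT sample, with 3 samples labelled control and 3 labelled *ob/ob*. All mice were 16-week-old males on a C57BL/6 background. *ob/ob* mice carry a nonsense mutation in both copies of *Lep*, which encodes the satiety hormone leptin, in every tissue, so that a difference in iBAT cannot be assigned to a loss of leptin in the fat itself. The genotype of the control mice is given only as control, and the labels do not say whether a sample was 1 animal or a pool, so that the p values measure only the spread between these samples. The mutant allele is still transcribed. The *Lep* level was 5.74, 4.57, and 5.30 in control iBAT and 6.68, 5.83, and 9.33 in *ob/ob* samples, in log2 units, so every *ob/ob* array lay above every control array.

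Pyruvate made by glycolysis enters mitochondria through a carrier of the MPC1 and MPC2 proteins. There, the pyruvate dehydrogenase (PDH) complex oxidizes it to acetyl-CoA, and pyruvate carboxylase converts it to oxaloacetate. PDH kinases switch the complex off by phosphorylation, and PDH phosphatases switch it on again. The TCA cycle then condenses acetyl-CoA with oxaloacetate and oxidizes the product, giving the reducing equivalents that feed the respiratory chain. In brown adipocytes, this chain is uncoupled by UCP1 to release heat, and TCA cycle enzymes are abundant there as they are in skeletal muscle.

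Array control 3 and array *ob/ob* 3 stood apart from the other arrays of their groups. Over all probes tested, the Spearman correlation was 0.964 between control 1 and control 2 and 0.967 between *ob/ob* 1 and *ob/ob* 2. Control 3 had a correlation of 0.915 and 0.944 with *ob/ob* 1 and *ob/ob* 2, against 0.642 and 0.730 with the other control arrays. *ob/ob* 3 had a correlation of 0.858 with control 1, against 0.573 and 0.488 with the other *ob/ob* arrays. The main results are therefore given with all 6 arrays and without these 2. Because they were left out for their expression values, tests on the remaining 4 arrays describe those arrays and are no test of genotype. The share of spots well above background was 83.5% to 89.9%, and the 75th percentile of the background-corrected intensity was 94.5 to 292, lowest on control 3. The median log2 intensity of the spike-in control probes was 6.80, 7.10, and 6.19 on the control arrays. On the *ob/ob* arrays it was 6.25, 6.85, and 4.01, so *ob/ob* 3 had the lowest value. The part of these technical differences in the expression values was not tested. Values below are quantile-normalized log2 intensities, called levels, in the order of replicates 1, 2, and 3. They may be compared between arrays for 1 gene, but not between genes.

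The labelled tissue was checked against cell type markers. *Ucp1*, which marks brown adipocytes, was detected on all 6 arrays, at 13.05, 11.72, and 9.48 in control iBAT and 8.93, 9.12, and 10.03 in *ob/ob* samples, and these ranges overlapped. The mean level of 10 brown adipocyte markers was 10.75, 10.16, and 7.72 in control iBAT and 7.40, 7.32, and 8.33 in *ob/ob* samples. Skeletal muscle markers were also present, with 10 of 13 detected on all 6 arrays. Their mean level was 10.48, 10.79, and 8.13 in control iBAT and 6.32, 6.07, and 12.18 in *ob/ob* samples, highest on *ob/ob* 3 and lowest on *ob/ob* 1 and 2. The same arrays, control 1, control 2, and *ob/ob* 3, were high for endothelial markers (6 of 6 genes tested, mean levels of 6.78 to 9.74) and fibroblast markers (5 of 5, 6.27 to 11.20). White adipocyte markers (6 of 6 genes tested) had mean levels of 7.55 to 9.40, macrophage markers (7 of 8) of 7.53 to 8.26, lymphocyte markers (7 of 7) of 6.03 to 7.34, and erythrocyte markers (3 of 5) of 6.87 to 8.98. The part of these cell types in the results that follow was not tested. In RNA from whole tissue, fewer cells of a type and less RNA per cell cannot be told apart.

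**Figure D1:**
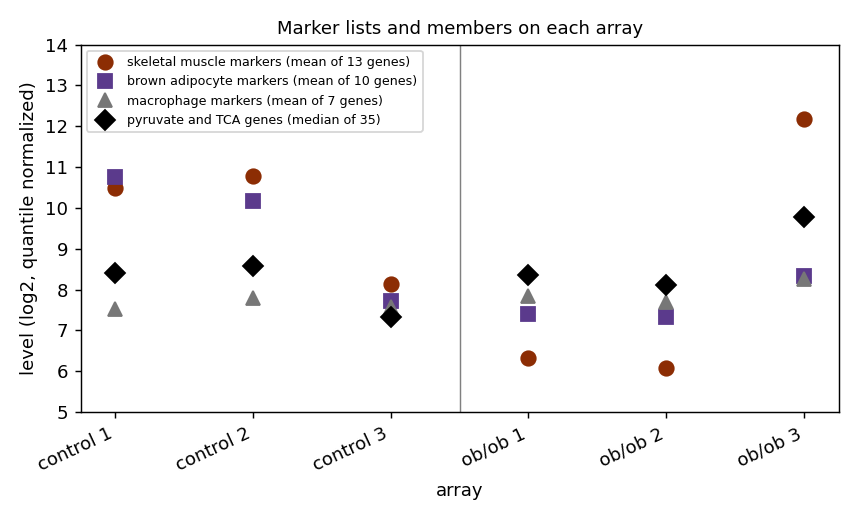
Levels on each array (log2, quantile normalized, y axis) for the mean of 13 skeletal muscle, 10 brown adipocyte, and 7 macrophage marker genes and for the median of the 35 pyruvate and TCA genes, with 1 point per array (x axis) and no error bars. The member median was lowest on control 3 at 7.33 and highest on *ob/ob* 3 at 9.77, and muscle markers were highest on *ob/ob* 3 as well, at 12.18.

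With all 6 arrays, the genotypes were not separated for the pathway as a whole. The member median was 8.40, 8.57, and 7.33 in control iBAT and 8.35, 8.11, and 9.77 in *ob/ob* samples, so that the groups overlapped. Of the 35 members, 23 had a higher and 12 a lower mean in *ob/ob* samples, and the median log2 fold change (*ob/ob* minus control) was 0.36, beside -0.09 over all 19011 genes. None of the members passed an adjusted p under 0.05 in limma (adjusted p = 1 for each), and neither did any of the 35448 probes (0.00% called, lowest adjusted p = 0.154, with 1245 probes under an unadjusted p of 0.05). By an unadjusted p under 0.05 and at least a 2-fold difference, 1.69% of all genes were higher and 1.49% were lower in *ob/ob* samples. *Pdk3* was the 1 member called, as higher, but it was not well above background on any control array and entered the test only through its detection on the *ob/ob* arrays, so that nothing is read from its call. None of the other 34 members was called in either direction.

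The groups overlapped for 30 members. Every *ob/ob* array lay above every control array for *Pdk3*, *Idh3b*, *Sucla2*, and *Got2*, or 4 members (11.4%) beside 3.76% of all genes, and below for *Pdpr*, or 1 member (2.86%) beside 4.19%. Without *Pdk3*, 3 of 34 members (8.82%) lay above. When each array was instead scaled to its 75th percentile, these counts were 1 member above (*Got2*), beside 2.34% of all genes, and 2 below (*Pdk1* and *Pdpr*), beside 4.41%, so *Pdk3*, *Idh3b*, and *Sucla2* were separate between the groups with quantile normalization and overlapped with this scaling.

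The members spread widely over the arrays of each group. The median range of a member over the 6 arrays was 2.62 log2 units, beside 1.81 over all genes, and the ranges ran from 0.44 for *Me2* to 6.71 for *Got1*. Control 3 was the lowest array for 22 members (62.9%), beside 19.4% of all genes, and *ob/ob* 3 was the highest for 20 (57.1%), beside 30.5%. For 21 members (60%), control 1, control 2, and *ob/ob* 3 all lay above the other 3 arrays, as they did for 30.1% of all genes. This group included *Mpc1* and *Mpc2*, *Pdhb*, *Dlat*, *Dld*, and *Pdhx*, *Pdk4*, *Pcx*, *Cs*, *Fh1*, *Mdh1*, and *Mdh2*, and *Got1*. Among the members, only *Aco1* had the opposite order, with the same 3 arrays below the others, an order found for 31.5% of all genes.

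**Figure D2:**
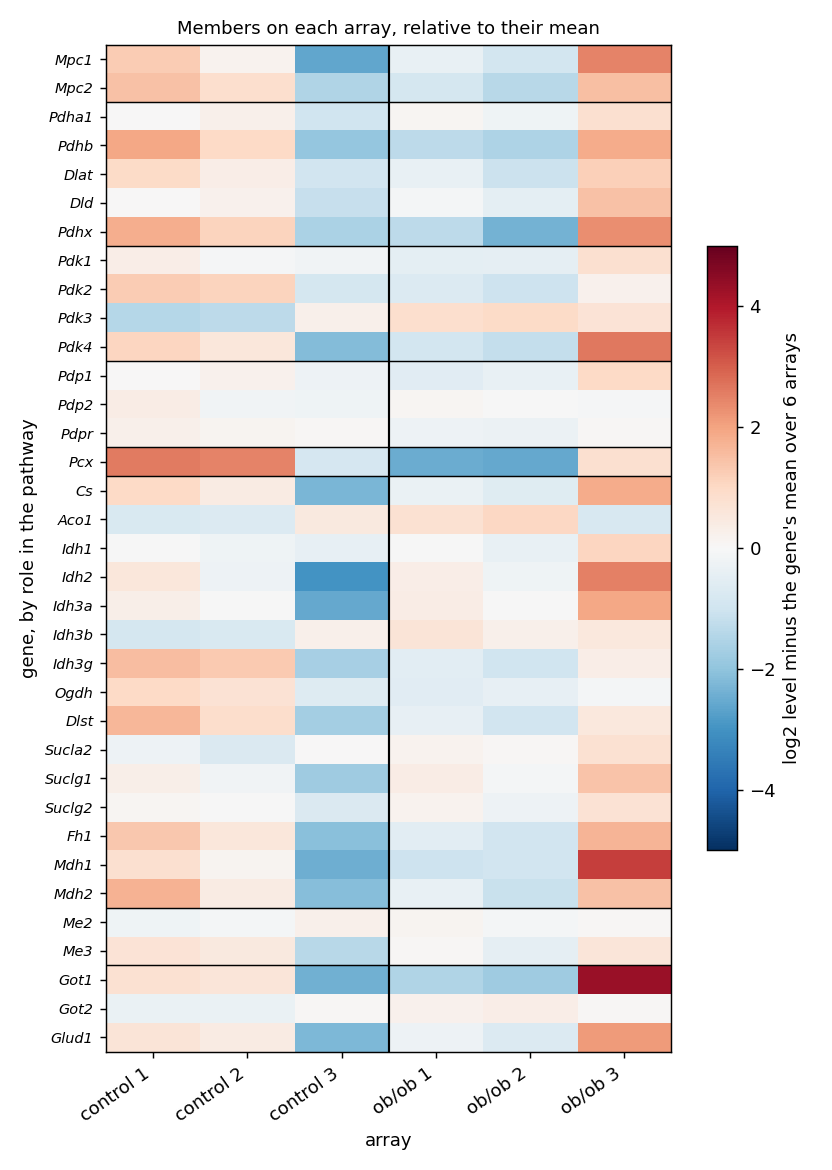
Level of each of the 35 genes (rows, ordered by role, separated by horizontal lines) on each array (columns, control left of the vertical line), as the log2 level minus the mean of that gene over 6 arrays. Most rows are blue on control 3 and red on *ob/ob* 3, with 22 genes lowest on the first and 20 highest on the second, whereas *Aco1*, *Idh3b*, and *Pdk3* are blue on control 1 and control 2.

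Both pyruvate carrier genes followed this order. The *Mpc1* level was 13.31, 12.22, and 9.44 in control iBAT and 11.66, 11.13, and 14.53 in *ob/ob* samples (log2 fold change of 0.78 ± 1.28 SE). The *Mpc2* level was 10.52, 9.88, and 7.54 in control iBAT and 8.19, 7.69, and 10.55 in *ob/ob* samples (-0.50 ± 1.04 SE). For both, the groups overlapped, and the standard error was larger than the difference. On the 4 arrays without control 3 and *ob/ob* 3, both were lower in *ob/ob* samples, at -1.37 for *Mpc1* and -2.26 for *Mpc2*. A second *Mpc1* probe gave 0.87 with all arrays.

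The PDH complex is built of the E1 subunits PDHA1 and PDHB, the E2 enzyme DLAT, the E3 enzyme DLD, and the binding protein PDHX, which anchors E3. Their log2 fold changes differed in sign, and none exceeded its standard error. The *Pdha1* level was 8.33, 8.57, and 7.33 in control iBAT and 8.42, 8.11, and 9.10 in *ob/ob* samples (log2 fold change of 0.47 ± 0.48 SE). *Pdhb*, which encodes its partner in the same E1 heterotetramer, had a wider range over the arrays, 9.77 to 13.65 against 7.33 to 9.10, and a log2 fold change of -0.67 ± 1.31 SE. Of the other subunits, *Dld* had the highest log2 fold change, 0.60 ± 0.65 SE, from 8.16, 8.36, and 6.99 in control iBAT and 8.05, 7.64, and 9.61 in *ob/ob* samples. DLD also serves the 2-oxoglutarate dehydrogenase and branched-chain complexes. *Dlat* stood at 7.53, 6.91, and 5.62 in control iBAT and 6.21, 5.50, and 7.77 in *ob/ob* samples (-0.19 ± 0.75 SE). *Pdhx* had the lowest fold change of the complex, -0.89 ± 1.43 SE, with levels of 7.78, 7.05, and 4.35 in control iBAT and 4.64, 3.59, and 8.27 in *ob/ob* samples, and it was not well above background on *ob/ob* 2. None of the 5 separated the groups. Without control 3 and *ob/ob* 3, all 5 were lower in *ob/ob* samples, from -0.18 for *Pdha1* to -2.91 for *Pdhb*. *Pdhx* had a measured value of -3.30 on these arrays, but only 1 of the 2 *ob/ob* arrays was above background there, and with all 6 arrays, normexp background correction moved it to -0.26.

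**Figure D3:**
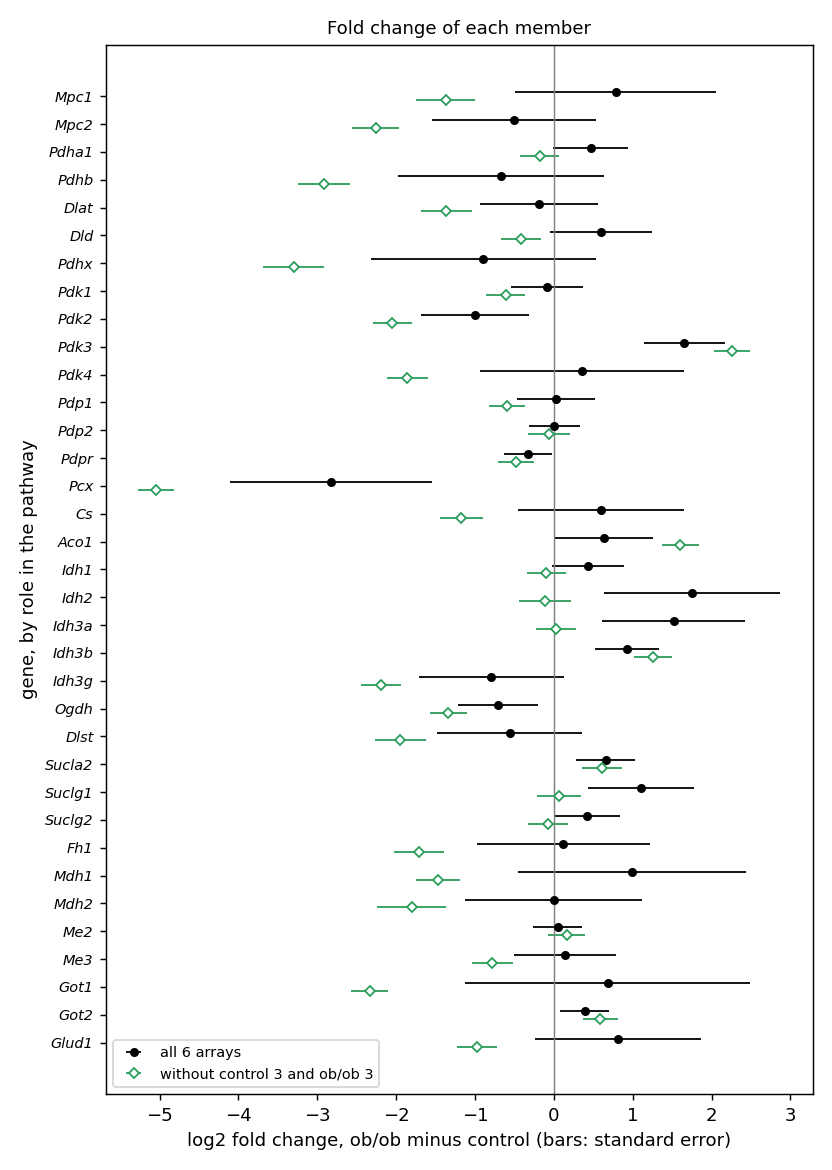
Log2 fold change, *ob/ob* minus control (x axis), of each of the 35 genes (y axis, by role) with all 6 arrays (filled circles) and without control 3 and *ob/ob* 3 (open diamonds), with bars for the limma standard error. With 6 arrays, 23 genes lie right of 0, and with 4 arrays 27 lie left of it. *Pcx* lies farthest left in both, at -2.82 and -5.05.

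Among those of the 4 PDH kinases that were detected in control iBAT, *Pdk2* had the largest difference with all 6 arrays. PDK2 is the most widely expressed isoform. The *Pdk2* level was 7.75, 7.61, and 5.61 in control iBAT and 5.82, 5.45, and 6.72 in *ob/ob* samples, with a log2 fold change of -0.997 ± 0.687 SE. Control 1 and control 2 lay above all *ob/ob* arrays, and control 3 lay among them. On the 4 arrays that leave out control 3 and *ob/ob* 3, the log2 fold change was -2.05 ± 0.24 SE. *Pdk3* was not well above background on any of the 3 control arrays and was detected on all 3 *ob/ob* arrays, so that it passed the detection filter only through the group in which it is higher. Its measured values were 2.38, 2.51, and 4.05 in control iBAT and 4.65, 4.75, and 4.50 in *ob/ob* samples. In quantile-normalized values, the *ob/ob* mean was 1.64-fold above the lowest signal well above background on the control arrays (limma on the measured values, adjusted p = 1). This is no minimum under other processing, since normexp background correction gave a log2 fold change of 0.31. With 75th percentile scaling, the *Pdk3* groups overlapped.

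*Pdk4* is the kinase isoform raised by fasting and fatty acid oxidation in muscle and other tissues. Its level was 11.18, 10.67, and 7.94 in control iBAT and 9.20, 8.93, and 12.73 in *ob/ob* samples, so *ob/ob* 3 was the highest and control 3 the lowest. The log2 fold change was 0.36 ± 1.29 SE with all 6 arrays and turned to -1.86 ± 0.26 SE without control 3 and *ob/ob* 3. Within the scan that control 1, control 3, and *ob/ob* 1 shared, it was -0.36. *Pdk1* ranged from 5.19 to 6.48 over all arrays (-0.09 ± 0.46 SE).

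The PDH phosphatase genes had small log2 fold changes on their brightest probes. *Pdpr*, which encodes the regulatory subunit of the phosphatase, was 5.73, 5.62, and 5.53 in control iBAT and 5.20, 5.19, and 5.51 in *ob/ob* samples. The groups did not overlap, but the gap between control 3 and *ob/ob* 3 was small, and the log2 fold change was -0.33 ± 0.30 SE. The catalytic subunit genes *Pdp1* and *Pdp2* had log2 fold changes of 0.02 ± 0.49 SE and 0.00 ± 0.32 SE. *Pdp1* levels were 6.46, 6.64, and 6.16 in control iBAT and 5.87, 6.04, and 7.41 in *ob/ob* samples. The 3 *Pdp1* probes disagreed, since the others gave log2 fold changes of 0.47 and 2.36, and the last of these ran from 1.87 to 8.89 over the arrays. On the probe at 0.47, every *ob/ob* array lay above every control array.

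*Pcx*, which encodes pyruvate carboxylase, had the largest difference of all members. Its level was 11.80, 11.66, and 8.35 in control iBAT and 6.73, 6.64, and 9.98 in *ob/ob* samples. The mean was 10.60 ± 1.95 (SD, n = 3) in control iBAT and 7.78 ± 1.90 (SD, n = 3) in *ob/ob* samples, 7.08-fold lower. Control 1 and control 2 lay above every *ob/ob* array, whereas control 3 was lower than *ob/ob* 3, so the groups overlapped. In limma, the log2 fold change of -2.82 ± 1.28 SE had an unadjusted p of 0.0677 and an adjusted p of 1. It was lower in *ob/ob* samples under all 18 alternatives tried, with log2 fold changes of -2.23 to -5.05. Some of these alternatives could not change the value, so agreement there was fixed in advance. Just 1 of the 4 scans held arrays of both groups (control 1 and 3 with *ob/ob* 1), and within it, *ob/ob* 1 differed from the mean of the 2 control arrays by -3.35. That value rests on 1 *ob/ob* array. Brown adipocyte and skeletal muscle markers, among other lists, were also at their highest on control 1, control 2, or *ob/ob* 3 and low on *ob/ob* 1 and 2. Whether they account for the *Pcx* difference was not tested.

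**Figure D4:**
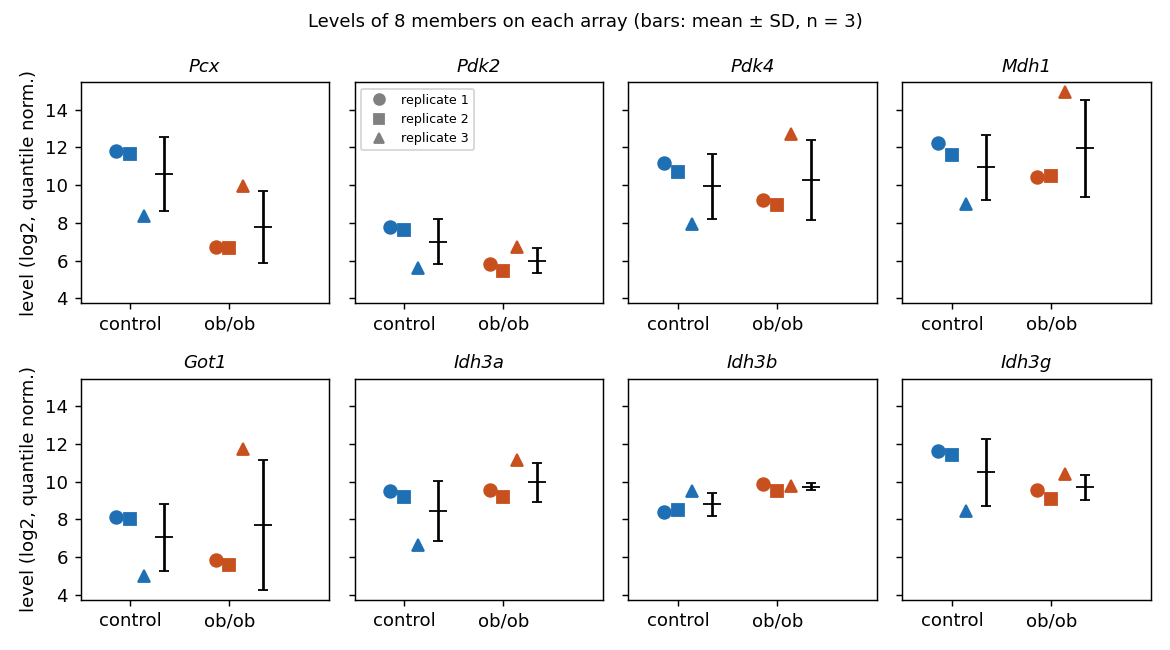
Levels (log2, quantile normalized, y axis) of 8 genes in control (blue) and *ob/ob* (orange) iBAT, with replicates 1, 2, and 3 as circle, square, and triangle and bars for the mean ± SD of 3 arrays. Replicate 3 is the lowest control array and the highest *ob/ob* array for every gene shown except *Idh3b*, the 1 gene of the 8 whose groups do not overlap.

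*Cs* encodes citrate synthase, which makes the first product of the cycle and is widely used as a measure of mitochondrial content. Its level was 11.32, 10.73, and 8.05 in control iBAT and 9.99, 9.72, and 12.19 in *ob/ob* samples, with a log2 fold change of 0.60 ± 1.05 SE. The group ranges overlapped throughout, and without control 3 and *ob/ob* 3, the value turned to -1.17 ± 0.27 SE. *Aco1* encodes the cytosolic aconitase, which acts in iron sensing when it lacks its iron-sulfur cluster. Its level was 7.10, 7.17, and 8.33 in control iBAT and 8.60, 8.88, and 7.04 in *ob/ob* samples, with *ob/ob* 3 the lowest of all 6 arrays.

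The NAD-dependent isocitrate dehydrogenase, IDH3, is 1 enzyme made from the products of *Idh3a*, *Idh3b*, and *Idh3g*, and their log2 fold changes differed in sign. *Idh3b* was 8.40, 8.49, and 9.50 in control iBAT and 9.89, 9.52, and 9.77 in *ob/ob* samples, with a log2 fold change of 0.93 ± 0.41 SE (limma, unadjusted p = 0.0611, adjusted p = 1). *Idh3g* was 11.63, 11.41, and 8.43 in control iBAT and 9.56, 9.10, and 10.43 in *ob/ob* samples, or -0.79 ± 0.92 SE. *Idh3a*, which encodes the catalytic subunit, was 9.51, 9.20, and 6.64 in control iBAT and 9.57, 9.18, and 11.14 in *ob/ob* samples, or 1.52 ± 0.91 SE. The groups were separate for *Idh3b*, with a narrow gap between control 3 and *ob/ob* 2, and overlapped for the other two. Each of the 3 kept its direction under all 18 alternatives, some of which could not change the value. However, *Idh3a* came down to 0.02 without control 3 and *ob/ob* 3, where *Idh3b* was at 1.26 ± 0.24 SE and *Idh3g* at -2.19 ± 0.26 SE. The difference between the subunits was not tested.

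The upstream sequences of *Idh3b* and *Idh3g* are shown because these genes code for parts of 1 enzyme and had opposite signs, and that of *Pcx* because it had the largest difference. Each is the 250 bases before a gene start in RefSeq (GRCm38.p6), written 5′ to 3′ on the strand of the gene, with the letters CGGAAG (the core of ETS family sites) or CCAAT, on either strand, in capitals. *Idh3b* starts on chromosome 2 (chr2:130284452-130284701, minus strand), *Idh3g* on chromosome X (chrX:73786898-73787147, minus strand), and *Pcx* on chromosome 19, where 2 starts are listed (chr19:4510222-4510471 for start 1 and chr19:4594069-4594318 for start 2, plus strand).
Idh3b: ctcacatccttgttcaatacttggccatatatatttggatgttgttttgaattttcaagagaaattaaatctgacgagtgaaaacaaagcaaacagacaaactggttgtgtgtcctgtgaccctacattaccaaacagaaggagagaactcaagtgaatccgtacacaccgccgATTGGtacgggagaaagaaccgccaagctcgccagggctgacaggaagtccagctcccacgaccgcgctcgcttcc
Idh3g: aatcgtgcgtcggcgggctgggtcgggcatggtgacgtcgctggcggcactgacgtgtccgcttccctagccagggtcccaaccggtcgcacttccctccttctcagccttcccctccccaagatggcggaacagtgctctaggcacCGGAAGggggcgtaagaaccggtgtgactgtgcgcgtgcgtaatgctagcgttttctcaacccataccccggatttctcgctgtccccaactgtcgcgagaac
Pcx start 1: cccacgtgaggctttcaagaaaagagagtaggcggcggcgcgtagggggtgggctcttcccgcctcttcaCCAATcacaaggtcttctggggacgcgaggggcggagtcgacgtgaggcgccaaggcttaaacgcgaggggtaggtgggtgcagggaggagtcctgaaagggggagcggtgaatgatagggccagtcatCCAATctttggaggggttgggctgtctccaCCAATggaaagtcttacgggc
Pcx start 2: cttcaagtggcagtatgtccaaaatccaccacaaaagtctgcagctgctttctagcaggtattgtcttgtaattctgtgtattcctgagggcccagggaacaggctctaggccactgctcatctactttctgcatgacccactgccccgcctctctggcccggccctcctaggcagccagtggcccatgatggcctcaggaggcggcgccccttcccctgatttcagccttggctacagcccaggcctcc

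*Idh3b* held CCAAT at 1 place and no CGGAAG, *Idh3g* held CGGAAG at 1 place and no CCAAT, and the first *Pcx* window held CCAAT at 3 places. RefSeq windows were matched for 32 of the 35 members (none was matched for *Pdp1*, *Me2*, and *Idh3a*). CGGAAG was in the windows of 12 members (37.5%), beside 15.3% of 27025 genes, and CCAAT was in those of 18 members (56.2%), beside 37.5% of all genes. CAAGGTCA, the element bound by estrogen-related receptors, was in 0 of 32 members and 1.51% of all genes. The searches covered both strands, and matches of different motifs do not overlap in the windows printed here. A match in the letters describes the sequence and shows no binding.

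*Idh2*, which encodes the mitochondrial NADP-dependent enzyme, had the highest log2 fold change of the TCA cycle genes. Its level was 11.81, 10.99, and 8.26 in control iBAT and 11.57, 11.01, and 13.75 in *ob/ob* samples, with a log2 fold change of 1.75 ± 1.12 SE. Control 1 and 2 were at the level of *ob/ob* 1 and 2, so that the difference lay between control 3 and *ob/ob* 3, and without these arrays it was -0.11 ± 0.33 SE. *Idh1*, for the cytosolic form, ranged from 5.67 to 7.15 (0.43 ± 0.46 SE).

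The 2-oxoglutarate dehydrogenase complex shares DLD with the PDH complex, and its own E1 and E2 genes had negative log2 fold changes, whereas that of *Dld* was positive. *Ogdh*, which encodes the E1 enzyme, was 11.78, 11.51, and 10.13 in control iBAT and 10.22, 10.39, and 10.68 in *ob/ob* samples (log2 fold change of -0.71 ± 0.51 SE). Control 1 and control 2 lay above all *ob/ob* arrays, and control 3 lay below them. The other 2 *Ogdh* probes gave -0.13 and -1.29. *Dlst*, for the E2 enzyme, ranged from 7.51 to 10.85 (-0.56 ± 0.92 SE). Without control 3 and *ob/ob* 3, the values were -1.34 ± 0.24 SE for *Ogdh* and -1.95 ± 0.33 SE for *Dlst*.

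Succinyl-CoA synthetase is made of the alpha subunit SUCLG1 and either the ADP-forming beta subunit SUCLA2 or the GDP-forming SUCLG2. *Sucla2* was 10.95, 10.50, and 11.24 in control iBAT and 11.40, 11.27, and 11.98 in *ob/ob* samples, with no overlap and a log2 fold change of 0.66 ± 0.38 SE. *Suclg1* and *Suclg2* had log2 fold changes of 1.11 ± 0.68 SE and 0.42 ± 0.41 SE, and both overlapped between the groups. The 3 genes thus had higher means in *ob/ob* samples, but *Sucla2* alone among them kept a difference of similar size without control 3 and *ob/ob* 3 (0.61, beside 0.06 for *Suclg1* and -0.07 for *Suclg2*), and limma gave *Sucla2* an adjusted p of 0.0824 on those 4 arrays. Of the last steps, *Fh1* (fumarase, 0.12 ± 1.1 SE), *Mdh2* (mitochondrial malate dehydrogenase, -0.00 ± 1.12 SE), and *Mdh1* (cytosolic malate dehydrogenase, 0.99 ± 1.45 SE) had errors larger than their differences with all 6 arrays. With those 2 arrays left out, *Fh1* was at -1.71 ± 0.32 SE, *Mdh2* at -1.80 ± 0.44 SE, and *Mdh1* at -1.47 ± 0.28 SE, and each had an adjusted p under 0.05 in limma on these 4 arrays.

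The malic enzyme genes, whose products return malate to pyruvate, had small differences. *Me3* was 7.77, 7.56, and 5.70 in control iBAT and 7.14, 6.62, and 7.69 in *ob/ob* samples (log2 fold change of 0.14 ± 0.64 SE), and its 3 probes differed in sign. *Me2* stayed between 5.97 and 6.41 on all arrays. Of the enzymes that exchange cycle intermediates with amino acids, *Got2*, for the mitochondrial aspartate aminotransferase, was 7.72, 7.71, and 8.10 in control iBAT and 8.24, 8.37, and 8.10 in *ob/ob* samples. Its groups did not overlap under either scaling, although control 3 and *ob/ob* 3 were at the same value to 2 decimals with quantile normalization, and the log2 fold change was 0.39 ± 0.31 SE. *Got1*, for the cytosolic enzyme of the malate-aspartate shuttle, had the widest spread of all members, at 8.13, 7.99, and 4.99 in control iBAT and 5.86, 5.59, and 11.70 in *ob/ob* samples (0.68 ± 1.81 SE). *Glud1*, for glutamate dehydrogenase, was 9.22, 8.99, and 6.35 in control iBAT and 8.35, 7.91, and 10.74 in *ob/ob* samples (0.81 ± 1.05 SE), and its groups overlapped.

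Because many members were high or low on the same arrays, each was also expressed relative to the median of the 35 members on its array. On this scale, *Dlat*, *Pdk2*, *Pdp1*, *Pcx*, and *Ogdh* lay lower on every *ob/ob* array than on every control array, and no member lay higher. These 5 members (14.3%) stand beside 13.8% of all genes that were lower by the same measure, and beside 0.210% that were higher, so their number is near the background. The place of *Pdp1* among them rests on its brightest probe, and with the mean of its probes the relative difference was 0.29. With 75th percentile scaling, 4 of the 5, all but *Pdp1*, remained without overlap, beside 13.5% of all genes lower and 0.221% higher. On the 4 arrays without control 3 and *ob/ob* 3, 20 members lay below and 6 above, where 29.6% of all genes lay below and 48.2% above. The relative *Pcx* value was 3.40, 3.10, and 1.02 in control iBAT and -1.63, -1.47, and 0.20 in *ob/ob* samples, a difference of -3.47. Differences in the same direction were -1.64 for *Pdk2* and -1.36 for *Ogdh*. These members are shown because their groups did not overlap on this scale, so no p is given. A value on this scale shows unequal change within an array and not a change of its own.

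**Figure D5:**
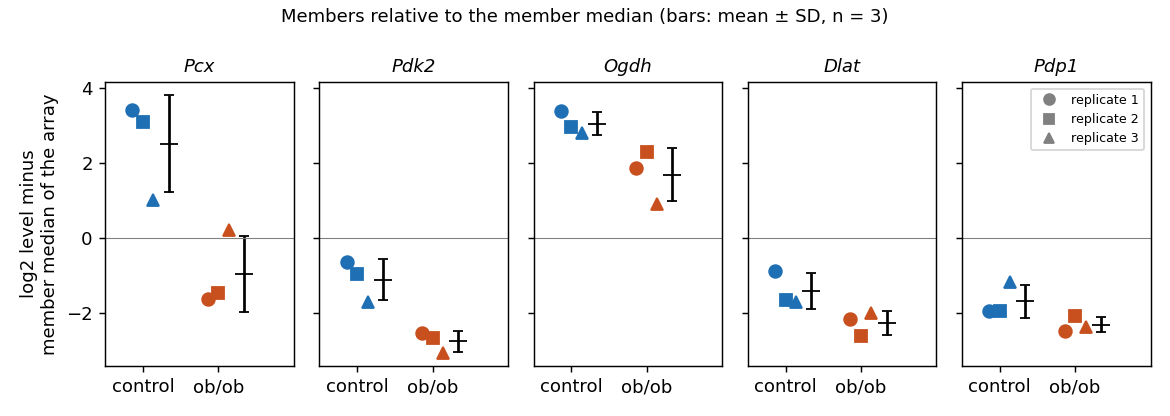
Log2 level minus the median of the 35 genes on the same array (y axis) for the 5 genes whose groups did not overlap on this scale, in control (blue) and *ob/ob* (orange) iBAT, with replicates 1, 2, and 3 as circle, square, and triangle and bars for the mean ± SD of 3 arrays. *Pcx* runs from 1.02 to 3.40 in control iBAT and from -1.63 to 0.20 in *ob/ob* samples.

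Without control 3 and *ob/ob* 3, most of the pathway was lower in *ob/ob* samples. The median log2 fold change of the members was -0.78, beside 0.12 over all probes. Of the 35 members, 27 were lower, and 15 changed sign against the fit of all 6 arrays. In limma on these 4 arrays, 18 members (51.4%) were lower past an adjusted p under 0.05, where 23.0% of all probes were, and 3 members (8.57%) were higher, where 22.8% were. These shares are not like for like, since members count the brightest probe of a gene and the background counts every probe. The 3 higher members were *Idh3b* (1.26), *Aco1* (1.60), and *Pdk3*. The quantile-normalized *Pdk3* mean of the *ob/ob* arrays was 1.87-fold above the lowest signal well above background on control 1 and control 2. Nothing is read from its call here either. Without *Pdk3*, 2 of 34 members (5.88%) were higher. Among the 18 lower were *Pcx* (-5.05), *Pdhb* (-2.91), *Got1* (-2.34), *Mpc2* (-2.26), and *Idh3g* (-2.19). On these 4 arrays, the mean level of skeletal muscle markers was 10.48 and 10.79 in control iBAT and 6.32 and 6.07 in *ob/ob* samples, and that of brown adipocyte markers was 10.75 and 10.16 against 7.40 and 7.32. The part of either in the member values was not tested. Leaving out 1 of the 2 arrays was enough to turn the median, to -0.19 without control 3 and to -0.26 without *ob/ob* 3. Within the shared scan of control 1, control 3, and *ob/ob* 1, the median difference was 0.01, with 17 members lower.

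Of 31 further genes of the same pathways, among them the lactate dehydrogenases, citrate and malate carriers, and lipoate synthesis genes, 29 were on the array and tested (*Lipt2* and *Nnt* were not named on it). None passed the adjusted p or the unadjusted p and 2-fold rule in limma, 11 had a higher and 18 a lower mean in *ob/ob* samples, and the median log2 fold change was -0.28. *Ogdhl*, for a relative of OGDH found mainly in the brain, was the 1 gene of this list whose groups did not overlap, at 5.72, 5.89, and 6.37 in control iBAT and 4.80, 5.54, and 3.51 in *ob/ob* samples. It was detected on 5 of the 6 arrays. Over all genes, 4.19% lay below and 3.76% above without overlap, so 1 of 29 genes is no more than this background.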

How the data were processed

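The authors deposited, per array, the scanner output (Agilent Feature Extraction 11.0.1.1 per the labels), with the background-corrected intensity of each spot, and a quantile-normalized log2 table, used here as an alternative. Spots with outlier flags were dropped, log2 values were averaged over the spots of each probe, and arrays were quantile normalized. Of 39429 probes, 104 were left out for flags on all their spots, and 35448 detected on at least 3 of 6 arrays (at least 50% of spots well above background) were tested with limma 3.58.1 in R 4.3.3, as *ob/ob* minus control, and p values were adjusted over all of them by the Benjamini-Hochberg method. No array weight or covariate was used. RefSeq accessions named 27174 of 28623 probes through the GRCm38.p6 annotation, and the brightest probe stood for a gene. Python 3.11.15, pandas 2.3.3, numpy 2.4.6, scipy 1.17.1, and matplotlib 3.10.9 were used for the rest.

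The members and lists were chosen with earlier results of these data known. Values on each array are given for members whose groups did not overlap (levels or relative values) or that had an unadjusted p under 0.05, for *Pdk4*, *Cs*, *Pdha1*, and *Pcx*, and for the highest and lowest fold change of each role, 21 members in all. *Idh3a*, *Aco1*, *Got1*, and *Ogdhl* were added after their values were seen. 1 gene of the further pathway genes is not reported here, and the counts are without it. No correlation over arrays is given, because the arrays fall into clusters, so genes with the most similar pattern were not sought. The code was tested on simulated data. The alternatives were other scalings, background corrections, detection filters, probe summaries, tests, weights, and blocks, and leaving out arrays. The number of arrays limits the precision.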

Additional observations from a re-analysis of the deposited data

How the results depend on the processing

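Of the 35 members, 12 kept the sign of their log2 fold change under each of the 18 alternatives that tested them, and 23 changed sign at least once. The 12 include *Pcx*, *Pdk2*, *Idh3b*, *Idh3g*, *Ogdh*, *Sucla2*, *Got2*, and *Pdpr*. *Pdk3* is also among them, but it entered the test only through its detection on the *ob/ob* arrays, so nothing is read from its sign. The t-test, the detection filters, and the replicate block return the fold change of the main fit by design. The mean of the probes of a gene does so for the 27 members with 1 probe. Agreement there was fixed in advance. The groups hold 3 arrays each, 15 members turned sign without control 3 and *ob/ob* 3 and 20 did not, and array signal near background limits *Pdk3* and *Pdhx*. Scaling to the 75th percentile moved the median of all probes from -0.07 to -0.32, and the member median was 0.25. The cause of the changes below was not tested.

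No probe passed the adjusted p with all arrays at equal weight. Of 35448 probes, 16259 passed without control 3 and *ob/ob* 3, and 33168 passed with array quality weights (the estimation stopped before it converged). With weights estimated gene by gene, an alternative chosen after seeing the data, 17402 passed. Of the 35 members, 21, 35, and 20 were among them. Since so many of all probes passed, these counts are not read as a result about the members. These settings in that order gave a member median of -0.78, -0.56, and -0.66, and 3 members higher in each and 16, 12, and 13 lower past the unadjusted p and 2-fold rule. By this rule, 598 probes were higher and 478 lower in the main setting, against 5869 and 6789, 5308 and 5678, and 5280 and 5848 in those settings. The counts were 139 and 312 with 75th percentile scaling, 128 and 310 with normexp, 327 and 313 with the methods' t-test, and 35 and 113 with the scan block. With detection on all 6 arrays, 394 were higher. No member (0) was higher with 75th percentile scaling, normexp, detection on all 6 arrays, or the scan or replicate block, and 1 was lower with the scan block, which compares 1 *ob/ob* array with 2 control arrays.

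Without control 3 and *ob/ob* 3, signs turned for 15 members. Of these, 9 are among those given on each array, *Pdk4* (-1.86), *Cs* (-1.17), *Mpc1* (-1.37), *Glud1* (-0.98), *Me3* (-0.78), *Pdp1* (-0.59), *Dld* (-0.41), *Pdha1* (-0.18), and *Idh2* (-0.11), and the others are *Got1* (-2.34), *Fh1* (-1.71), *Mdh1* (-1.47), *Idh1* (-0.09), *Suclg2* (-0.07), and *Pdp2* (-0.06). Relative to the member median, 20 members lay below and 6 above, where 29.6% of all genes lay below and 48.2% above. With array weights, and with gene-by-gene weights, the values were -1.47 and -1.53 for *Pdk4*, -0.74 and -0.83 for *Cs*, -0.56 and -0.80 for *Mpc1*, -0.64 and -0.71 for *Glud1*, -0.42 and -0.55 for *Me3*, -0.77 and -0.66 for *Pdp1*, -0.31 and -0.34 for *Dld*, and -0.15 and -0.16 for *Pdha1*. With the scan block, *Pdk4* was at -0.36 and *Pdp1* at -0.44, with normexp *Pdp1* was at -0.020, and with the mean of the probes of a gene, *Me3* was at -0.12 and the relative *Pdp1* value at 0.29.

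When 1 array at a time was left out, the member median ran from -0.26 (without *ob/ob* 3) to 0.56 (without *ob/ob* 2), and the log2 fold change from -0.33 to 1.61 for *Mpc1*, -1.39 to 0.10 for *Mpc2*, -0.83 to 0.30 for *Dlat*, -2.28 to 0.063 for *Pdhx*, -0.86 to 1.04 for *Pdk4*, -0.46 to 0.31 for *Pdp1*, -0.39 to 1.24 for *Cs*, -0.51 to 0.52 for *Me3*, and -0.11 to 1.36 for *Glud1*. Past the unadjusted p and 2-fold rule, 0 to 2 members were higher and 0 to 5 lower, and 112 to 1762 probes were higher and 173 to 1170 lower, with the highest counts without control 3. Relative to the member median, 5 to 12 members lay below and 0 to 3 above. The shares over all genes were not computed for these settings, so nothing is read from these counts.

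The replicate block gave 139 probes higher and 220 lower. Same-numbered arrays did not deviate together from their group means (correlations of -0.78, -0.66, and -0.85 over 35448 probes). Because an array of each group stood apart from the others of its group, these correlations cannot decide whether same-numbered arrays were paired. The labels state no pairing, and none was assumed in the main fit.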
